A study of Homo sapiens with 18 samples.

Results

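The FOS and JUN genes, which encode the transcription factor AP-1, were described in 786-O, a human cell line from a clear-cell kidney cancer without working VHL. The 7 members of the family, FOS, FOSB, FOSL1, FOSL2, JUN, JUNB and JUND, were taken by name from the 27086 genes to which the deposited transcript counts were summed, and all 7 passed the filter on low counts in both experiments (13715 genes tested in the USP13 experiment and 13604 in the ZHX2 experiment). The family was selected on its levels in all 6 groups and its changes against the control hairpins, so the members' values, those between hairpins included, are given as a description, without a p-value. RNA was measured in 18 libraries in 6 groups of 3. The USP13 experiment held cells with hairpin sh50, cells with hairpin sh52, both against the deubiquitinating enzyme USP13, and cells with a control hairpin (USP13 shCtrl). The ZHX2 experiment held cells with hairpin sh43, cells with hairpin sh45, both against the zinc-finger and homeobox factor ZHX2, and cells with a control hairpin of its own (ZHX2 shCtrl). All groups are the same cell line, and every group carries a hairpin, the controls included. The growth protocol names DMEM with fetal bovine serum as the medium. The labels state triplicates and do not say whether these were separate cultures, so any p-value reflects the variation among these libraries alone, and that variation may be technical.

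AP-1 is a dimer. FOS proteins do not pair with each other and bind DNA only with a partner such as a JUN protein, whereas JUN proteins also pair among themselves and with other basic leucine zipper (bZIP) factors. FOS, FOSB and JUNB are classical immediate early genes, transcribed within minutes of serum or stress through MAP kinase signalling and present as short-lived mRNA, whereas FOSL1 (FRA-1) and FOSL2 (FRA-2) follow later, and FOSL1 is itself transcribed through AP-1. JUN is switched on by the JUN N-terminal kinases acting on its own protein, and JUND is present at a steady level in many resting cells.

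The promoters of FOS, FOSB, FOSL2 and JUN are shown because each holds, at nearly the same distance from its start, a short element of the kind that CREB, ATF and JUN dimers bind. The RefSeq promoter table (GRCh38.p14) held 6 of the 7 members, all but FOSL1, and the 250 bases before the annotated start are printed, 5′ to 3′ on the strand of the gene. Capitals mark the matches to TGACGT, the core of the cAMP response element, or to TGACATCA, the element known from the JUN promoter. The windows are chr14:75278578-75278827 (plus strand) for FOS, chr19:45467746-45467995 (plus strand) for FOSB, chr2:28392608-28392857 (plus strand) for FOSL2 and chr1:58784048-58784297 (minus strand) for JUN.
FOS: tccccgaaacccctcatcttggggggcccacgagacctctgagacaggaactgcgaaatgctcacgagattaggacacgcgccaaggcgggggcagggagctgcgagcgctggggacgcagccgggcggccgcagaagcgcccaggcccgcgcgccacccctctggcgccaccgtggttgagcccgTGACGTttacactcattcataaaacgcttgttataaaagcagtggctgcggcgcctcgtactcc
FOSB: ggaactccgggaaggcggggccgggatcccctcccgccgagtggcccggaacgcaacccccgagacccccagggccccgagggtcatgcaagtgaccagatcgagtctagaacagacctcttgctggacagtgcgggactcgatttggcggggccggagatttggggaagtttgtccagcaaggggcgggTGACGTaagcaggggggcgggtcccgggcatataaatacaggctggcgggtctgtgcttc
FOSL2: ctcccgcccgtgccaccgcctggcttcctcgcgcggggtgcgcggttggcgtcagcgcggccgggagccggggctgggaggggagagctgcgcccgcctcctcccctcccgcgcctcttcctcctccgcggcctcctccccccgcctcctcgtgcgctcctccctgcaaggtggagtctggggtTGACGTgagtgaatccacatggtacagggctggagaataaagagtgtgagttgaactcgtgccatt
JUN: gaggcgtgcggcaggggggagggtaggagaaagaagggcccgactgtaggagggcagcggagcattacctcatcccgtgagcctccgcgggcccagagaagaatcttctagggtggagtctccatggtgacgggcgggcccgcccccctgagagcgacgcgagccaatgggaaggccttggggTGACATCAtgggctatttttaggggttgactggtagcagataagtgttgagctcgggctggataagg
TGACGT lay 64 to 59 bases before the start in FOS, 60 to 55 in FOSB and 66 to 61 in FOSL2, and TGACATCA lay 67 to 60 bases before the start of JUN. JUND held the full element TGACGTCA 200 to 193 bases before its start and a core on the other strand at 87 to 82, and JUNB held neither. On both strands, TGACGT, which is part of TGACGTCA, occurred in 7.1% of 35116 promoters of the same length, TGACGTCA in 1.65% and TGACATCA in 2.37%. The AP-1 site TGACTCA, found in 4.2% of all promoters, and the CArG box bound by serum response factor, found in 1.16%, had no match in the 6 windows. Bases farther than 250 from the start were not searched, so the promoters are not said to lack these sites. A match is a description of these letters and no evidence of binding.

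Total estimated counts ranged from 11192561 to 16511290 per library. The targeted genes followed the titles. USP13 had 16.3, 16.7 and 20.0 CPM (counts scaled to library size by TMM) under sh50 and 14.5, 17.6 and 17.4 CPM under sh52, against 35.8, 33.6 and 30.8 CPM in USP13 shCtrl. ZHX2 had 40.1, 44.9 and 40.1 CPM with sh43 and 93.3, 84.6 and 82.2 CPM with sh45, against 346, 351 and 350.2 CPM in ZHX2 shCtrl, so less ZHX2 mRNA remained under sh43 than under sh45. The treatment protocol names 43 and 45 as USP13 hairpins, and USP13 in their experiment had 32.9 to 40.2 CPM with sh43 and 45.0 to 51.3 CPM with sh45, against 39.8 to 45.6 CPM in ZHX2 shCtrl. In the USP13 experiment ZHX2 was lower too, at 130 to 133 CPM with sh50 and 132 to 137 CPM with sh52. USP13 shCtrl had 144 to 153 CPM of ZHX2, and the log2 changes were -0.20 and -0.17. The renal line's markers PAX8, EPAS1, VIM, KRT8 and KRT18 summed to 3828 to 5369 CPM in every library, while leukocyte markers summed to 19.0 to 64.8 CPM, most of it CD68, endothelial markers to 0.591 to 4.34 CPM and fibroblast markers to 3.06 to 9.68 CPM, with PTPRC, PECAM1, VWF, CDH5 and DCN at or near 0. Of the 5 renal markers named, VIM, KRT8 and KRT18 fell under both USP13 hairpins. KRT18, EPAS1 and PAX8 rose under both ZHX2 hairpins, while KRT8 was called in opposite directions (0.12 under sh43 and -0.16 under sh45, log2 change). VIM fell under sh43 and was not called under sh45. The sum of the 5 markers was lower with sh43 (4396 to 4539 CPM) and higher with sh45 (5209 to 5369 CPM) than in ZHX2 shCtrl (4930 to 5109 CPM). The level of this list thus moved with the knockdowns, and not in 1 direction. The endothelial sum was 3.24 to 4.34 CPM with sh43, above all libraries of sh45 and ZHX2 shCtrl. The 1 endothelial marker tested was called higher under sh43 (log2 change 1.98) and was not called under sh45 (0.28). Of 3 fibroblast markers tested there, 1 was called higher and 1 lower under sh43, and none under sh45. No endothelial or fibroblast marker tested was called under either USP13 hairpin against USP13 shCtrl. CSF1R rose under both ZHX2 hairpins, at 1.95 to 2.39 CPM with sh43 and 0.941 to 1.49 CPM with sh45, against 0.349 to 0.855 CPM in ZHX2 shCtrl, and CD68 was called in opposite directions in both experiments. Library 1 of sh52 stood apart from the other libraries of its group, with 15490 genes detected. Values without it are given for the members' changes against shCtrl and for FOSL2, JUNB and JUND between the USP13 hairpins. The sh52 levels, the TPM sums and the changes of genes outside the family include it. Levels of a gene in a bulk sample do not separate fewer cells expressing it from less RNA per cell.

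**Figure D1:**
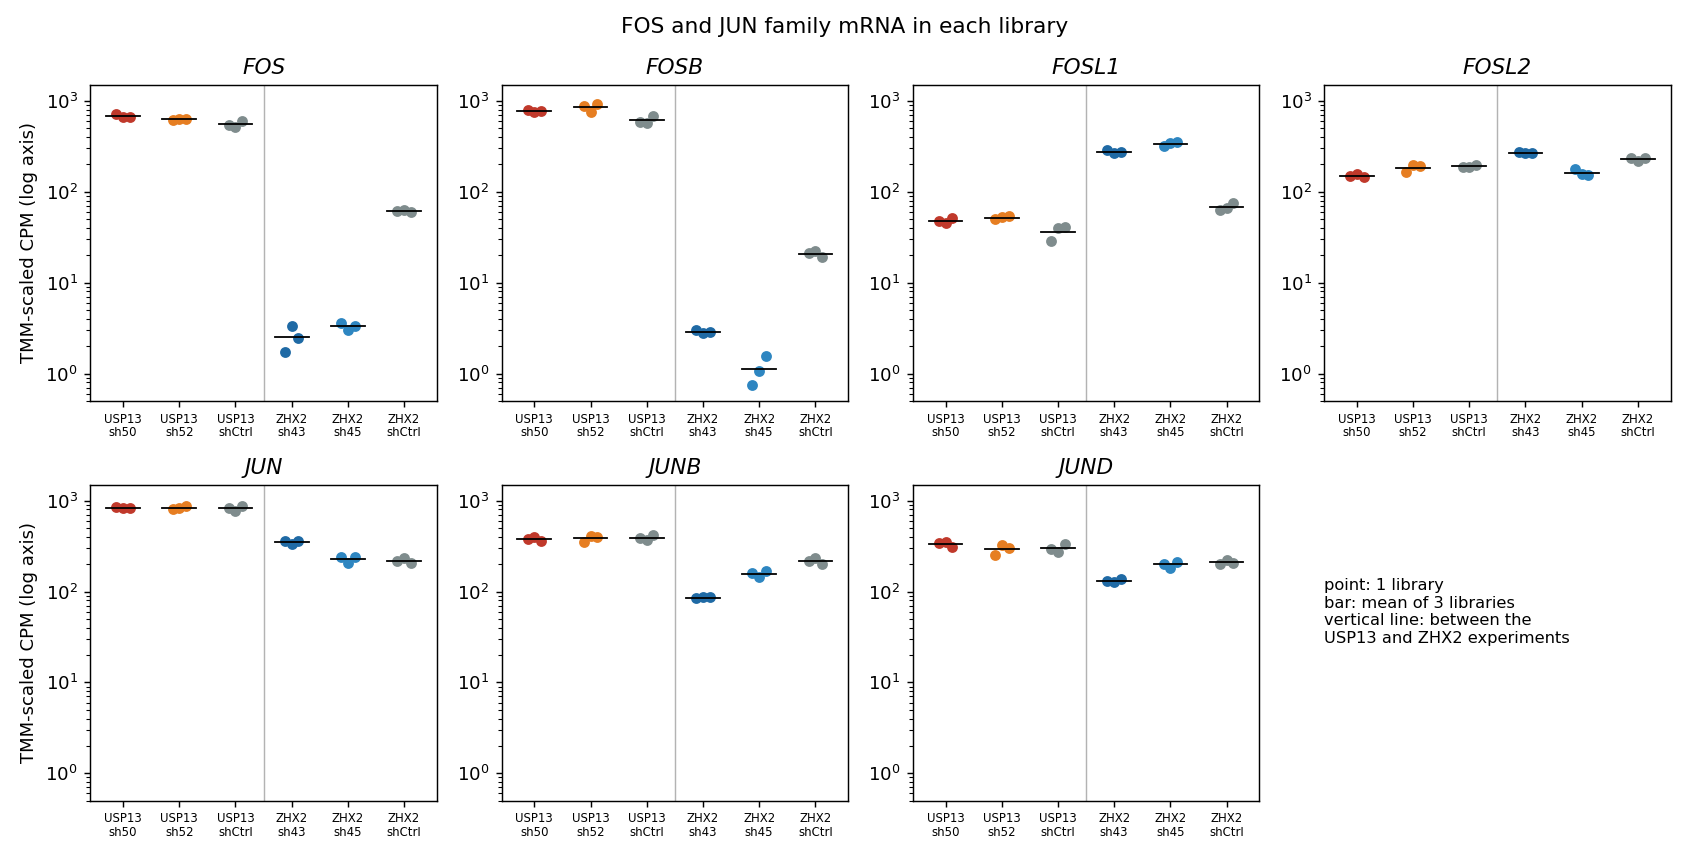
Level of each family member in each library, in TMM-scaled CPM on a log axis; points are libraries, bars are means of 3, and the vertical line separates the USP13 experiment (left) from the ZHX2 experiment (right). FOS and FOSB lie between 516 and 932 CPM throughout the USP13 experiment, and between 0.740 and 62.9 CPM in the ZHX2 experiment.

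The control cells of both experiments started from different AP-1 levels, although both carry a control hairpin in the same line. FOSB, a FOS protein gene that responds to stimuli, had 21.2, 22.2 and 19.4 CPM in ZHX2 shCtrl, against 582, 569 and 688 CPM in USP13 shCtrl. FOS, the founding member, had 61.5, 62.9 and 60.6 CPM in ZHX2 shCtrl, against 548, 516 and 598 CPM in USP13 shCtrl. The means were thus 29.3 times apart for FOSB and 8.98 times apart for FOS, both lower in ZHX2 shCtrl. JUN averaged 219 ± 13.6 CPM in ZHX2 shCtrl and 824 ± 54.9 CPM in USP13 shCtrl (SD, n = 3 each), 3.76 times apart. JUNB, which can restrain JUN, averaged 217 ± 14.1 CPM in ZHX2 shCtrl and 391 ± 28.0 CPM in USP13 shCtrl, and JUND averaged 209.6 ± 12 CPM in ZHX2 shCtrl and 301 ± 30.8 CPM in USP13 shCtrl. FOSL1 and FOSL2 lay the other way. FOSL1 averaged 68.1 ± 5.99 CPM in ZHX2 shCtrl and 36.5 ± 6.55 CPM in USP13 shCtrl, and FOSL2 averaged 231 ± 9.91 CPM in ZHX2 shCtrl and 190.8 ± 4.86 CPM in USP13 shCtrl. The libraries of the control groups did not overlap for any of the 7 members, which was also so for 61.2% of the 14207 genes kept over all 18 libraries. A difference of more than 2 times, seen for FOS, FOSB and JUN, was found in 13% of those genes. Experiment, culture, library preparation and sequencing cannot be told apart here, so each hairpin is compared only with the control of its own experiment.

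Under the USP13 hairpins, 3 of the 4 FOS genes were slightly higher than in USP13 shCtrl, and the libraries of the JUN genes overlapped those of the controls. FOS had 714, 663 and 659 CPM with sh50 and 623, 636 and 629.9 CPM with sh52, against 548, 516 and 598 CPM in USP13 shCtrl. Every library of either hairpin was above every control library. The log2 change was 0.28 (SE 0.05) under sh50 and 0.18 (SE 0.05) under sh52. FOSB had 787, 752 and 767 CPM with sh50 and 881, 749.6 and 932 CPM with sh52, against 582, 569 and 688 CPM in USP13 shCtrl. The hairpin and control groups did not overlap here either. The log2 change of FOSB was 0.32 (SE 0.07) under sh50 and 0.47 (SE 0.07) under sh52. FOSL1 had 47.3, 45.1 and 51.0 CPM with sh50 and 49.6, 53.0 and 53.6 CPM with sh52, against 29, 39.8 and 40.8 CPM in USP13 shCtrl. Control library 1 was the low one, and no control library reached the hairpin groups. The log2 change of FOSL1 was 0.38 (SE 0.10) under sh50 and 0.50 (SE 0.10) under sh52, and 0.24 and 0.36 without that control library.

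FOSL2 lay lower with sh50 than with sh52. It had 151, 156 and 147 CPM with sh50 and 166, 196 and 192 CPM with sh52, against 189, 187 and 196 CPM in USP13 shCtrl. The sh50 libraries were below every control, while those of sh52 overlapped them. The log2 change was -0.35 (SE 0.06) under sh50 and -0.05 (SE 0.06) under sh52. JUN, the founding JUN gene, had 848, 822 and 822 CPM with sh50 and 807, 821 and 867 CPM with sh52, against 833, 765 and 874 CPM in USP13 shCtrl. The 3 groups overlapped, with log2 changes of 0.00 (SE 0.05) under sh50 and 0.01 (SE 0.05) under sh52. JUNB (357 to 395 CPM with sh50 and 351 to 408 CPM with sh52, against 367 to 422 CPM in USP13 shCtrl) and JUND (308 to 348 CPM with sh50 and 253 to 322 CPM with sh52, against 274 to 334 CPM in USP13 shCtrl) also overlapped, with log2 changes between -0.06 and 0.14.

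At an adjusted p under 0.05, the fit across all genes put 4 of 7 members apart from the control under sh50 (FOS, FOSB and FOSL1 higher, FOSL2 lower), where it did so for 21.5% of all genes tested (10.2% higher and 11.3% lower). Under sh52 it put 3 of 7 apart (FOS, FOSB and FOSL1 higher), against 12% of all genes (5.45% higher and 6.56% lower). FOS, FOSB and FOSL1 were higher under both hairpins, as were 3.26% of all genes. The libraries of hairpin and control did not overlap for 4 of 7 members under sh50, as for 38.1% of all genes, and for 3 of 7 under sh52, as for 27.7%. Since these contrasts belong to how the family was chosen, nothing is read from the counts. The call for FOS under sh52 was lost without sh52 library 2 (log2 change 0.17), without sh52 library 3 (0.18), without control library 1 (0.17) and without control library 2 (0.13). The call for FOSL1 under sh50 was lost without control library 1, and JUND under sh50 was called without control library 3 (0.22). Without sh52 library 1, which stood apart, the sh52 changes were 0.19 for FOS, 0.45 for FOSB, 0.54 for FOSL1, 0.02 for FOSL2, 0.03 for JUN, 0.04 for JUNB and 0.04 for JUND. Mitochondrial rRNA took 4.11% to 4.43% of counts under sh50 and 3.54% to 3.80% under sh52, against 2.54% to 2.70% in USP13 shCtrl, and its part in these differences was not tested.

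**Figure D2:**
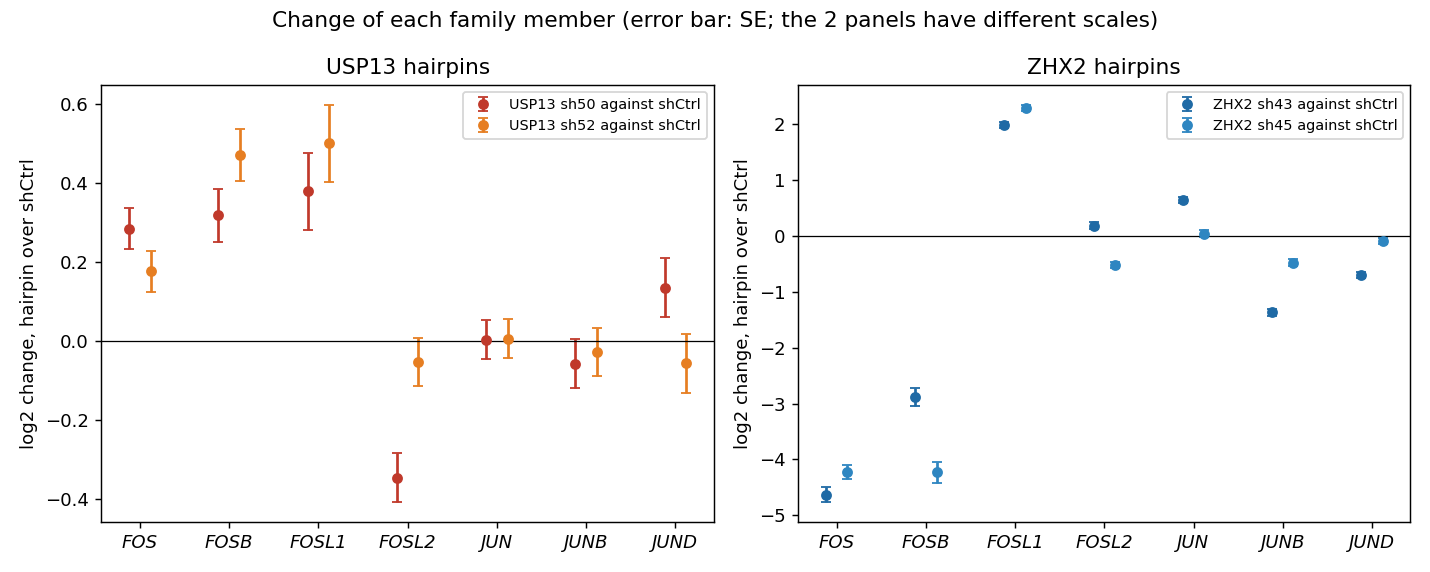
Log2 change of each member against the shCtrl group of its own experiment, sh50 and sh52 on the left and sh43 and sh45 on the right; points are estimates from the edgeR fit and bars are standard errors, and the vertical scales differ. In the USP13 panel all changes lie between -0.35 and 0.50, whereas in the ZHX2 panel they run from -4.63 for FOS to 2.29 for FOSL1.

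Set against each other, sh52 over sh50, the USP13 hairpins were farthest apart for FOSL2. FOSL2 was higher under sh52 than under sh50 by 0.29 (SE 0.06) on the log2 scale, in all 3 libraries against all 3, and by 0.37 without sh52 library 1. FOS was lower in every sh52 library than in every sh50 library, with a log2 difference of -0.11 (SE 0.05), and of -0.07 without sh50 library 1. The libraries overlapped for the other 5 members. FOSB differed by 0.15 (SE 0.07), by 0.24 without sh52 library 2 and by 0.09 without sh52 library 3. JUND differed by -0.19 (SE 0.07), by -0.27 without sh52 library 2 and by -0.10 without sh52 library 1, which stood apart. FOSL1 differed by 0.12, between 0.08 and 0.17 over the alternatives, and JUNB by 0.03, with 0.09 without sh52 library 1 and -0.01 without sh52 library 2. JUN differed by 0.00. At an adjusted p under 0.05, FOSL2 was the 1 member of 7 called, where 10.2% of all genes tested were (5.48% higher and 4.74% lower), and FOSB and JUND were also called without sh52 library 2 and with no filter on low counts. The libraries did not overlap for 2 of 7 members, as for 27% of all genes. These levels belong to how the family was chosen, and nothing is read from the counts.

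Under the ZHX2 hairpins the family was rearranged: FOS and FOSB were nearly gone, FOSL1 was about 4 to 5 times as high as in the control, and JUNB was lower. FOS had 1.72, 3.31 and 2.47 CPM with sh43 and 3.63, 3.01 and 3.31 CPM with sh45, against 61.5, 62.9 and 60.6 CPM in ZHX2 shCtrl. The hairpin groups lay far below the controls and rested on 23 to 54 reads per library, against 791 to 867 reads in ZHX2 shCtrl. The log2 change of FOS was -4.63 (SE 0.13) under sh43 and -4.22 (SE 0.12) under sh45, which is 24.7-fold and 18.7-fold lower. FOSB had 3, 2.78 and 2.89 CPM with sh43 and 0.740, 1.06 and 1.56 CPM with sh45, against 21.2, 22.2 and 19.4 CPM in ZHX2 shCtrl. Both hairpin groups were again below every control, with 35 to 42 reads under sh43 and 11 to 23 under sh45. The log2 change of FOSB was -2.88 (SE 0.16) under sh43 and -4.23 (SE 0.19) under sh45.

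FOSL1, whose FRA-1 protein lacks the transactivation domain of FOS, moved the other way. It had 285, 268 and 275 CPM with sh43 and 321, 341 and 350.1 CPM with sh45, against 62.9, 66.7 and 74.6 CPM in ZHX2 shCtrl. All 6 hairpin libraries were above all controls, by 1.99 (SE 0.06) under sh43 and 2.29 (SE 0.06) under sh45 on the log2 scale, or 3.97-fold and 4.89-fold. FOSL2, its close relative, had 274, 265 and 265 CPM with sh43 and 180.2, 155 and 153 CPM with sh45, against 238, 219.7 and 235 CPM in ZHX2 shCtrl. It was above the controls under sh43 (log2 change 0.19, SE 0.06) and below them under sh45 (-0.52, SE 0.06), with no overlap in either case.

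Of the JUN genes, JUNB was lower under both ZHX2 hairpins. It had 84.3, 86.3 and 86.3 CPM with sh43 and 160.0, 145 and 168 CPM with sh45, against 215, 232 and 203 CPM in ZHX2 shCtrl. The 3 groups were separate, and the log2 change was -1.37 (SE 0.06) under sh43 and -0.48 (SE 0.06) under sh45. JUN had 360.3, 332 and 357 CPM with sh43 and 237, 206 and 242 CPM with sh45, against 217, 234 and 207 CPM in ZHX2 shCtrl. JUN was above the controls under sh43 (0.65, SE 0.06) and overlapped them under sh45 (0.04, SE 0.06). JUND had 131, 127 and 139 CPM with sh43 and 201, 184 and 213 CPM with sh45, against 199, 223 and 206 CPM in ZHX2 shCtrl. It was below the controls under sh43 (-0.69, SE 0.06) and overlapped them under sh45 (-0.09, SE 0.06).

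At an adjusted p under 0.05, all 7 members were called under sh43 (3 higher, 4 lower), against 68.8% of all genes tested (33.5% higher and 35.2% lower), and 5 of 7 under sh45 (1 higher, 4 lower), against 52.5% of all genes (25.3% higher and 27.3% lower). FOSL1 was higher under both hairpins, as were 14.1% of all genes, and FOS, FOSB and JUNB were lower under both, as were 15.9%. FOSL2 was called in opposite directions, as were 9.32%. The libraries of hairpin and control did not overlap for 7 of 7 members under sh43, as for 70.5% of all genes, and for 5 of 7 under sh45, as for 57.2%. These contrasts also belong to the choice of the family, and nothing is read from the counts. With any single library of the experiment left out, the log2 change of FOS under sh43 stayed between -4.91 and -4.42, and that of FOSL1 between 1.94 and 2.06. In the USP13 experiment 1 of 8 heat shock and handling stress genes, DNAJB1, rose under both hairpins, as did 3.26% of all genes. In the ZHX2 experiment 7 of 8 rose under sh43, as did 33.5% of all genes, and 8 of 8 fell under sh45, as did 27.3%. HSPB1 fell under both (-0.14 and -0.40, log2 change), and the others were called in opposite directions, as were 9.32% of all genes. The summed level of the 8 genes was 5244 to 5420 CPM with sh43 and 2759 to 2898 CPM with sh45, against 3479 to 3737 CPM in ZHX2 shCtrl. Mitochondrial rRNA took 1.51% to 1.57% of counts under sh43 and 2.83% to 3.35% under sh45, against 1.18% to 1.32% in ZHX2 shCtrl. The part of either in the family's values was not tested.

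The ZHX2 hairpins, which left different amounts of ZHX2 mRNA, are set against each other as sh45 over sh43. The JUN genes divided in this comparison. JUNB was higher under sh45 by 0.89 (SE 0.06) on the log2 scale and JUND by 0.60 (SE 0.06), while JUN was lower (-0.60, SE 0.06). FOSL1 was higher under sh45 by 0.30 (SE 0.05). FOSL2 was lower (-0.71, SE 0.06), and so was FOSB (-1.35, SE 0.26), which rested on 11 to 42 reads per library here. Each of these 6 separated all 3 sh45 libraries from all 3 sh43 libraries, as did 70.3% of all genes. The groups overlapped for FOS, with a log2 difference of 0.40 (SE 0.20), which was 0.69 without sh43 library 2 and 0.19 without sh43 library 1. At an adjusted p under 0.05, 6 of 7 members were called, all but FOS, where 66.8% of all genes were (34.2% higher and 32.7% lower), and FOS was called without sh43 library 2 and with upper-quartile scaling. Nothing is read from these counts either, since the levels in both groups belong to the choice of the family.

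On a per-length scale (TPM, deposited transcript abundances), which allows genes to be compared with each other, FOS was the most abundant member in the USP13 experiment and FOSL1 under the ZHX2 hairpins. In USP13 shCtrl, FOS (493 TPM), JUN (452 TPM) and JUNB (427 TPM) followed each other with overlapping libraries, JUND (299 TPM) and FOSB (296 TPM) overlapped next, and FOSL2 (85.7 TPM) and FOSL1 (46.2 TPM) were lowest and apart. Under sh50 and sh52, FOS was first and apart from JUN, at 581 TPM under sh50 and 562 TPM under sh52, and FOSB stood above JUND in all libraries. In ZHX2 shCtrl the order was JUNB (234 TPM), JUND (207 TPM), JUN (119.8 TPM), FOSL2 (104 TPM), FOSL1 (83.8 TPM), FOS (54.5 TPM) and FOSB (10.1 TPM), with no overlap between neighbours. Under sh43 it was FOSL1 (316 TPM), JUN (177 TPM), JUND (121 TPM), FOSL2 (111 TPM), JUNB (85.8 TPM), FOS (2.05 TPM) and FOSB (1.29 TPM). Under sh45 it was FOSL1 (356 TPM), JUND (168 TPM), JUNB (146 TPM), JUN (107 TPM), FOSL2 (62.6 TPM), FOS (2.51 TPM) and FOSB (0.457 TPM). Neighbours did not overlap in either of these groups.

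In TPM, the summed level of the family differed within the ZHX2 experiment by no more than the spread between libraries, while its makeup shifted. The 7 genes summed to 815 ± 27.4 TPM under sh43 and 843 ± 34.0 TPM under sh45, against 812 ± 7.66 TPM in ZHX2 shCtrl (SD, n = 3 each). On the CPM scale, which is not per length, the sum was 1084 to 1139 CPM with sh43 and 1035 to 1130 CPM with sh45, against 1006 to 1060 CPM in ZHX2 shCtrl, so there sh43 lay above the controls without overlap. FOSL1 made up 38.8% of the sum under sh43 and 42.4% under sh45, against 10.3% in ZHX2 shCtrl. JUNB made up 10.5% under sh43 and 17.3% under sh45, against 28.8% in ZHX2 shCtrl, and FOS 0.253% and 0.298%, against 6.71%. The 4 FOS genes together held 52.9% of the sum under sh43 and 50.1% under sh45, against 31.0% in ZHX2 shCtrl. In the USP13 experiment the sum was 2212 ± 22.4 TPM under sh50 and 2297 ± 62.5 TPM under sh52, against 2099.6 ± 124 TPM in USP13 shCtrl, and the 4 FOS genes held 48.0% under sh50 and 49.1% under sh52, against 43.9% in USP13 shCtrl. These sums are descriptions of mRNA and were not tested.

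**Figure D3:**
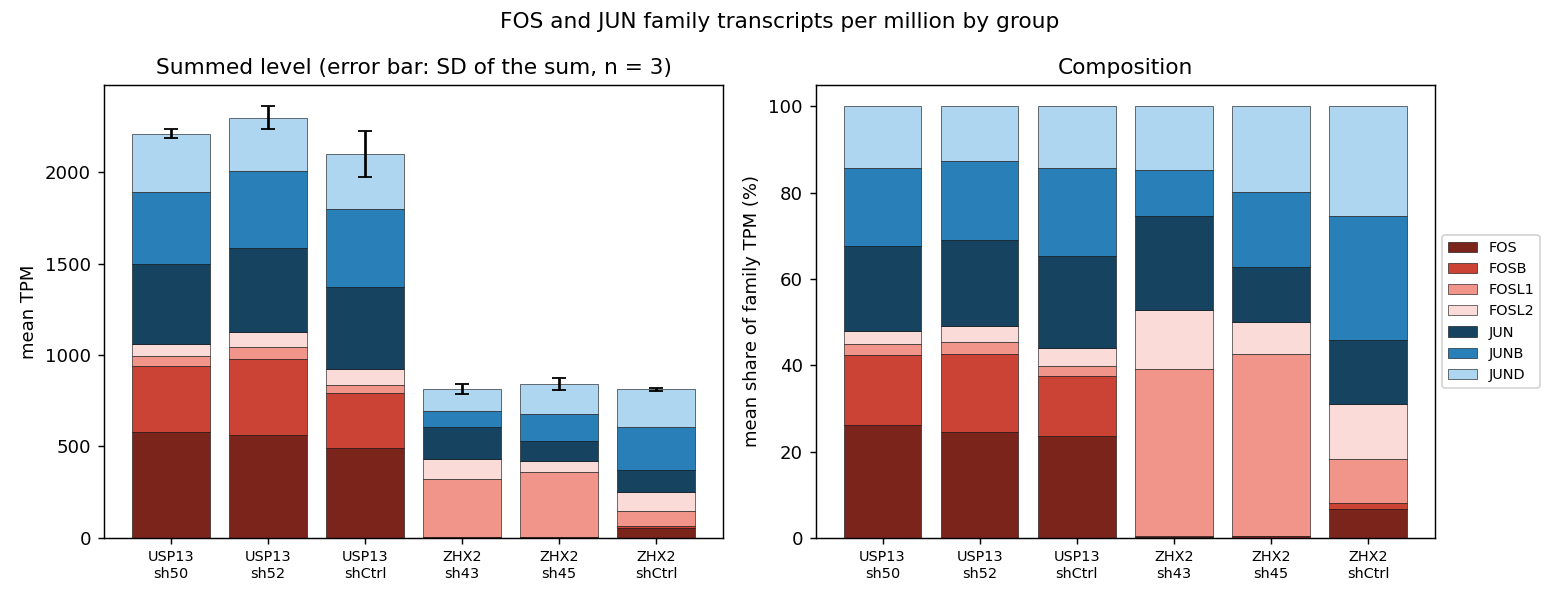
Left, mean TPM of the 7 members stacked by group, with the SD of the sum over 3 libraries as the error bar; right, the mean share of each member in the family's TPM in percent. The ZHX2 groups have sums between 812 and 843 TPM, with FOSL1 at 38.8% and 42.4% under sh43 and sh45 and at 10.3% in ZHX2 shCtrl.

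The members differ in how surely their reads can be placed. FOS (chromosome 14, 75278828 to 75282230), FOSL2 (chromosome 2, 28392858 to 28417317), JUN (chromosome 1, 58780791 to 58784047) and JUNB (chromosome 19, 12791486 to 12793315) each had 1 transcript in the files, coordinates being those of GRCh38.p14. FOSL1 (chromosome 11, 65892049 to 65900545) had 6 transcripts, FOSB (chromosome 19, 45467996 to 45475179) 2 and JUND (chromosome 19, 18279694 to 18281622) 2. FOSB lies over ERCC1, JUNB over HOOK2 and FOSL2 over FLJ31356, each on the other strand, and FOSL2 also holds the intronic gene AC104695.3 on its own strand. No exon bases were shared in the basic annotation of GENCODE 29, so reads from exons of a partner in that annotation do not fall in those of the member. Since the libraries carry no strand, unspliced reads of a partner cannot be told apart. The FOSB transcripts NM_006732 and NM_001114171 had near-equal shares in the USP13 experiment, where NM_006732 held 50.3% to 51.4% of the gene's TPM. NM_006732 held 39.7% to 61.8% under sh43 and 62.9% to 68.9% under sh45, against 44.4% to 47.6% in ZHX2 shCtrl, on the few reads given above for the hairpin groups. The reference transcript of FOSL1, NM_005438, held 26.6% to 29.5% under sh43 and 29.2% to 30.9% under sh45, against 27.8% to 28.6% in ZHX2 shCtrl. Its share thus moved little while the gene's level rose. Among the other transcripts, NM_001300856 held 12.1% to 13.4% under sh43 and 12.6% to 13.7% under sh45, against 11.5% to 11.8% in ZHX2 shCtrl. NM_001300855 held 16.0% to 16.8% under sh43 and 15.6% to 15.8% under sh45, against 17.4% to 18.9% in ZHX2 shCtrl.

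Of the genes outside the family, those said to have risen or fallen passed an adjusted p of 0.05 in edgeR's quasi-likelihood test over all genes, and pairs of values are log2 changes under sh50 and sh52, or under sh43 and sh45, each against its own shCtrl. The lists were chosen with earlier results of these data known, so their counts, medians and p-values are given as a description. The other bZIP factors that can pair with FOS or JUN proteins moved in both directions. Of 15 tested in the USP13 experiment, 2 rose and 2 fell under both hairpins, as did 3.26% and 4.16% of all genes (median log2 change of the list -0.04, of all genes 0.00). ATF3, a stress-induced repressor that pairs with JUN, rose by 0.25 (adjusted p = 0.013) under sh50 and 0.42 (adjusted p = 0.00022) under sh52. ATF4, the effector of the integrated stress response, rose by 0.35 and 0.34, while MAF (-0.41 and -0.60) and CREB5 (-0.30 and -0.26) fell. Of 16 tested in the ZHX2 experiment, 4 rose and 4 fell under both hairpins, where 14.1% of all genes rose and 15.9% fell, with a median of 0.16 against -0.02 for all genes. MAFF, a small MAF protein without a transactivation domain, averaged 46.3 CPM with sh43 and 36.5 CPM with sh45, against 14.9 CPM in ZHX2 shCtrl, and rose by 1.60 and 1.27. MAFG rose by 0.75 and 0.29. ATF2, a partner of JUN at its own promoter, changed by -0.76 and -0.42, and CREB5 by -0.77 and -0.40. JDP2, which represses AP-1 by pairing with JUN, was called in opposite directions, by 1.73 (SE 0.19) under sh43 and -0.76 (SE 0.25) under sh45. The adjusted p of the named ZHX2 genes did not exceed 0.011.

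Kinases and promoter factors that act upstream of FOS and JUN were tested in full, 28 of 28. Under both USP13 hairpins 2 fell, where 4.16% of all genes did. These were MAP2K6, an activator of p38 (-0.61 and -0.72), and MAPK14, which encodes p38 alpha (-0.27 and -0.26). Under both ZHX2 hairpins 6 rose and 6 fell, where 14.1% of all genes rose and 15.9% fell, with a median of -0.08 against -0.02 for all genes. MAPK10, a JUN N-terminal kinase, averaged 1.56 CPM with sh43 and 5.33 CPM with sh45, against 9.63 CPM in ZHX2 shCtrl, a log2 change of -2.65 (SE 0.21) and -0.87 (SE 0.17). MAP3K1, a kinase at the head of the JNK cascade, averaged 14.4 CPM with sh43 and 24.9 CPM with sh45, against 52.5 CPM in ZHX2 shCtrl (-1.89 and -1.10). MAP2K6 fell there as well (-1.15 and -1.51), and MAP2K3, another activator of p38, rose (1.40 and 0.75). ELK1, a ternary complex factor that drives FOS, was called in opposite directions (-0.48 under sh43 and 0.19 under sh45), and so was MEF2D (-0.42 and 0.24). Of 13 genes for turnover of FOS and JUN mRNA or protein, ITCH, a ubiquitin ligase for JUN and JUNB, was the 1 that fell under both USP13 hairpins (-0.38 and -0.28), where 4.16% of all genes fell. Under both ZHX2 hairpins 3 of the 13 fell, where 15.9% of all genes did, which were DET1, a substrate adaptor for JUN ubiquitination (-0.45 and -1.19), ZFP36L1, a protein that destabilises AU-rich mRNA (-0.62 and -0.68), and ITCH (-0.73 and -0.16). ZFP36, of the same kind as ZFP36L1, was called in opposite directions (-0.97 and 0.23).

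Other immediate early genes were in part lower under the ZHX2 hairpins as well. Of 18 tested in the ZHX2 experiment, 7 fell and 3 rose under both hairpins, where 15.9% of all genes fell and 14.1% rose, with a median of -0.32 against -0.02 for all genes. EGR1, a zinc-finger factor induced together with FOS, ranged from 2.14 to 5.89 CPM with sh43 and from 8.12 to 11.2 CPM with sh45, against 136 to 152 CPM in ZHX2 shCtrl. Its log2 change was -5.32 (SE 0.15, adjusted p = 4.9e-21) and -3.87 (SE 0.13, adjusted p = 3.0e-19). BTG2, an antiproliferative gene, changed by -2.14 and -2.26, and CCN1, a matricellular protein gene, by -0.85 and -1.28. KLF2 rose by 1.58 and 0.91. Of 19 tested in the USP13 experiment, 2 rose (KLF2 and ATF3) and 2 fell (BTG2 and KLF6) under both hairpins, where 3.26% of all genes rose and 4.16% fell. EGR1 did not pass there, with 0.11 (adjusted p = 0.14) under sh50 and 0.04 (adjusted p = 0.66) under sh52. Like FOS, EGR1 was lower in ZHX2 shCtrl, at 136 to 152 CPM, than in USP13 shCtrl, at 999 to 1137 CPM.

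Genes known as AP-1 targets were mostly higher under the ZHX2 hairpins. Of 26 tested, 15 rose and 2 fell under both hairpins, where 14.1% of all genes rose and 15.9% fell, and the median log2 change of the list was 0.90 against -0.02 for all genes. HMGA1, a chromatin protein gene, averaged 86.7 CPM with sh43 and 35.9 CPM with sh45, against 3.25 CPM in ZHX2 shCtrl, a log2 change of 4.70 (SE 0.11, adjusted p = 1.7e-22) and 3.44 (SE 0.12, adjusted p = 2.1e-18). The collagenase MMP1 averaged 22.1 CPM with sh43 and 1.76 CPM with sh45, against 0.524 CPM in ZHX2 shCtrl (5.36 and 1.74). The chemokine gene CXCL8 averaged 58.5 CPM with sh43 and 64.1 CPM with sh45, against 9.04 CPM in ZHX2 shCtrl (2.66 and 2.80), and the matrix gene TNC rose by 2.57 and 2.46. HMOX1 (3.11 and -0.34) and HBEGF (1.62 and -1.55) were called in opposite directions under sh43 and sh45. The summed level of the list did not follow the counts under sh43. It was 8396 to 8680 CPM with sh43 and 10529 to 10894 CPM with sh45, against 9147 to 9514 CPM in ZHX2 shCtrl. Many genes of this list are targets of other factors as well, and a list's median compares it with no other list. As the list was chosen with earlier results of these data known, its counts, median and sums are no independent test of AP-1 activity.

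In the USP13 experiment genes of the same list were called in both directions, and under sh50 more fell than rose. The list summed to 6799 to 7187 CPM with sh50 and 7619 to 7893 CPM with sh52, against 8366 to 8668 CPM in USP13 shCtrl. Of 22 tested, 3 rose and 2 fell under both hairpins, where 3.26% of all genes rose and 4.16% fell, with a median of -0.12 against 0.00 for all genes. VEGFA (0.42 and 0.46) and the cyclin gene CCND1 (0.28 and 0.41) rose, while VIM (-0.55 and -0.38) and the urokinase gene PLAU (-0.49 and -0.30) fell. Against shCtrl, 4 rose and 10 fell under sh50, where 10.2% of all genes rose and 11.3% fell. Under sh52, 5 rose and 2 fell, where 5.45% of all genes rose and 6.56% fell. The median log2 change of the list was -0.23 under sh50 and 0.02 under sh52. Tested between hairpins, 6 of 22 were higher under sh52 than under sh50, as were 5.48% of all genes.

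**Figure D4:**
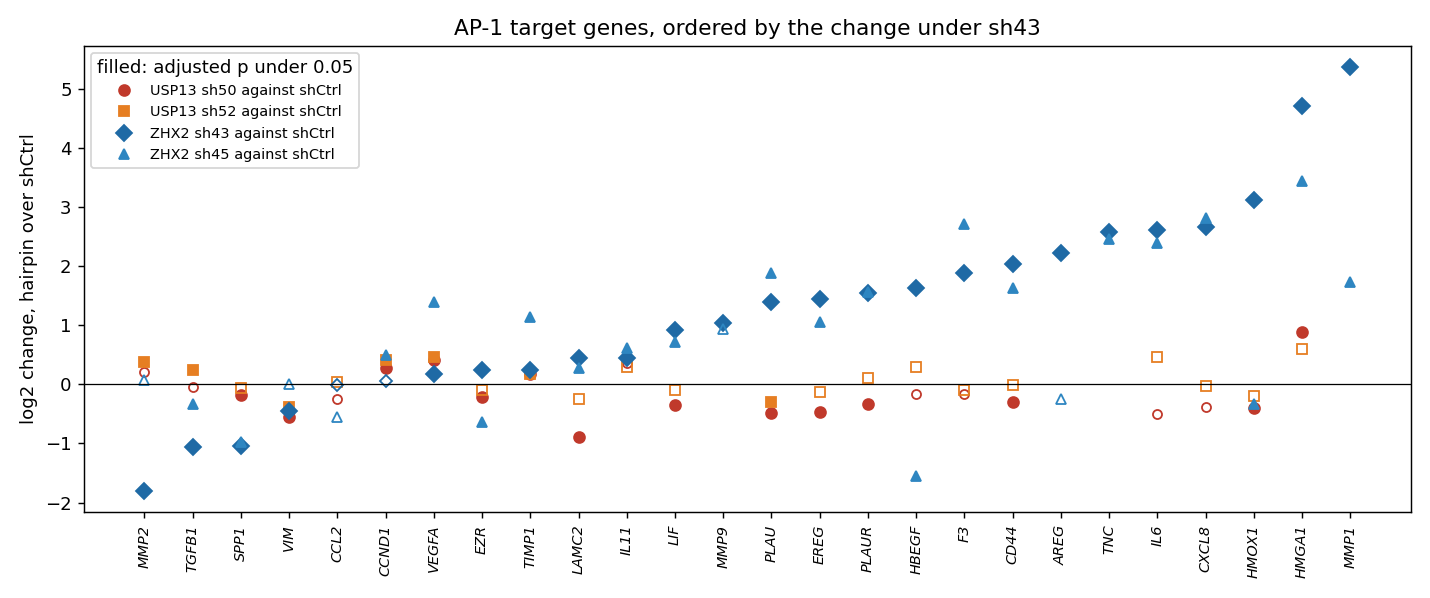
Log2 change of AP-1 target genes under each hairpin against its own shCtrl group, ordered by the change under sh43; filled symbols passed an adjusted p of 0.05. Under the ZHX2 hairpins the symbols reach 5.36 (MMP1, sh43), whereas under the USP13 hairpins the highest is 0.88 (HMGA1, sh50).

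The genes with the pattern most like each member's were taken by Pearson's r of log2 CPM over the 18 libraries, after each experiment was centred on its own mean. This is a description: the libraries fall into 6 groups of 3, so that differences between groups set r. They were QPRT (r = 0.985), SMO (0.984) and PHLDB1 (0.981) for FOS, DCDC2 (0.973), DPYSL4 (0.970) and MMP24 (0.963) for FOSB, and RIN1 (0.988), SLC2A3 (0.976) and NLRP1 (0.965) for FOSL1. For FOSL2 they were OPTN (0.967), FLNC (0.957) and CAVIN1 (0.948). For the JUN genes they were TRIM28 (0.973), SQSTM1 (0.963) and FAM174C (0.963) with JUN, HECTD3 (0.983), KIF12 (0.982) and OBSL1 (0.981) with JUNB, and GAMT (0.975), GLIS2 (0.962) and GAA (0.957) with JUND. No other member of the family was among the 3 nearest genes of any member. A high r over all libraries need not hold within the USP13 experiment. Under sh50, where FOS changed by 0.28 (log2), SMO changed by 0.13, QPRT by -0.13 and PHLDB1 by -0.04. RIN1 changed there by 0.27, where FOSL1 changed by 0.38.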

How the data were processed

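RNA of 18 libraries of 786-O cells was analysed. The kit was TruSeq RNA v2 (unstranded) and reads were paired-end, per the labels' protocols. Each deposited file is a Salmon quantification by RefSeq transcript, per the file headers. The build hg19 and the tools Salmon 0.11.3, STAR 2.5.2b, DESeq2 1.14.1 and cutadapt 1.12 are listed, without roles, per the submitters' processing notes. As deposited, the estimated counts carry no depth scaling, and all were whole within 1e-06. The deposited TPM values, scaled by the authors to a fixed total, were summed to genes to compare genes with each other. The deposited effective lengths were not used.

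Estimated counts were rounded and summed from 60422 transcripts to 27086 genes, with names from the RefSeq gene table (59295 transcripts) and GENCODE 29 (690). The 437 unnamed transcripts, 0.0854% to 0.120% of a library's counts, were left out. Salmon divides reads shared by transcripts, so levels of single transcripts are estimates. No replicate pair agreed within sampling noise (chi-square per degree of freedom 2.33 to 6.68 in 18 pairs).

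Each experiment's 9 libraries were fitted with edgeR 4.0.16 (R 4.3.3; filterByExpr, TMM, quasi-likelihood F-test, Benjamini-Hochberg adjustment over all genes, threshold 0.05), with 1 mean per group. CPM levels were scaled by TMM over all 18 libraries. The steps were tested on simulated data. The alternatives were other scalings, DESeq2 1.42.0, no filter, a replicate block, only the libraries of the compared groups, and each library left out.

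The members and all lists were chosen with earlier results of these data known. From each list, up to 4 genes per experiment were named, those with the largest mean change among genes called in 1 direction under both hairpins, and up to 2 called in opposite directions; the marker lists serve as checks. EGR1 in the USP13 experiment and in the controls was added after its values were seen. A gene of the AP-1 target list is not reported here and is left out of that list's counts and medians.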

Additional observations from a re-analysis of the deposited data

How the results depend on the processing

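No change that passed the threshold reversed its direction under any alternative. Of 630 recomputed changes of the members, 618 kept their side of the threshold, 7 newly passed and 5 no longer passed, and those 12 are named in the report. The members' contrasts belong to how the family was chosen, so these numbers describe the effect of processing and lend the calls no support. Of 90 recomputed counts of called genes, 86 stayed within 1.5 times their main count. The other 4 fell in the USP13 experiment: for sh52 against shCtrl (1648 genes) to 1023 without control library 1 and 991 without control library 2, and for sh52 against sh50 (1401 genes) to 839 without sh50 library 1 and 685 without sh50 library 2. With each library left out in turn, counts lay between 2041 and 3555 for sh50 against shCtrl, 991 and 1661 for sh52 against shCtrl, 685 and 1513 for sh52 against sh50, 8861 and 9447 for sh43 against shCtrl, 6351 and 7149 for sh45 against shCtrl, and 8454 and 9418 for sh45 against sh43. The groups share replicate numbers, but deviations of same-numbered libraries correlated only from -0.103 to 0.055 in the USP13 experiment and from -0.064 to 0.038 in the ZHX2 experiment, so the numbers were not taken to pair the libraries. With a replicate block the counts were 2698 for sh50, 1455 for sh52, 1182 for sh52 against sh50, 9234 for sh43, 6976 for sh45 and 8970 for sh45 against sh43, and no member's call changed.

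Counts limit FOS and FOSB under the ZHX2 hairpins, which rest on 11 to 54 reads per library, and differences between sh43 and sh45 there are the least certain. The calls of FOS under sh52 and FOSL1 under sh50 depend on single libraries. Levels cannot be compared between the experiments beyond description.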
